A study of Mus musculus with 6 samples.

Results

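The genes described here encode 10 products of the exocrine pancreas: the proteases Cela1, Ctrb1, Cpa1 and Cpb1, the fat-digesting proteins Pnlip, Clps and Cel, the amylase Amy2a5, and the granule proteins Zg16 and Sycn. They were measured in abdominal adipose tissue of C57BL/6 mice. The 10 genes were taken by name: each has 1 non-control array probe that carries its symbol, giving 10 of 150305 non-control probes. High-fat feeding of all mice began at the age of 6 weeks, and 12 weeks later they were assigned to an operation at random. The DJB group had a duodenal-jejunal bypass with a biliopancreatic limb of 5 cm and a Roux limb of 4 cm, under anaesthesia that the labels give as buprenorphine at 0.15 mg/kg intraperitoneally. The Sham group had its abdomen opened and its intestine cut and sewn back in place. The labels name buprenorphine for the DJB group only, and whether Sham mice had it is not stated. Each group has 3 one-colour arrays, called Sham-1 to Sham-3 and DJB-1 to DJB-3. The sources used here do not give the fat depot within the abdomen, the time after surgery, or whether each array holds the RNA of a separate animal, so p-values measure the spread between these arrays, and their small number limits the precision.

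Acinar cells make up most of the pancreas and fill their secretory granules with digestive enzymes, many of them inactive precursors called zymogens. Proteases cut dietary protein, pancreatic lipase and its cofactor colipase split triglycerides, and amylase splits starch. The enzyme genes are switched on together in acinar cells by the transcription factor complex PTF1, built around Ptf1a and Rbpjl. Fat cells are not known for this secretory programme. In mice the pancreas is not a compact organ but lies in lobules spread through the mesenteric fat beside the duodenum.

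The labelled tissue was checked on 13 adipocyte genes. All 13 were well above background on every array, the scanner software's flag for a spot brighter than its surroundings, and their summed level was 11.56 to 11.81 for Sham and 10.53 to 11.38 for DJB. Throughout, a level is the log2 of a spot's processed signal minus the 75th percentile of its array, so 1 unit is a factor of 2, and levels of different probes are not set against each other. Of all non-control probes, 62.6% to 68.8% were well above background, the highest share being that of Sham-1. The array's 75th percentile lay between 175.7 and 183.5 on Sham and between 131.9 and 165.2 on DJB arrays, in intensity units.

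The probes are single DNA strands of 60 bases. Those shown first belong to the members on which the results turn: Cela1 and Amy2a5, whose groups did not overlap, and Cpa1 and Clps, which are among those that varied most between arrays. All are written 5′ to 3′ as the array design gives them.
Cela1: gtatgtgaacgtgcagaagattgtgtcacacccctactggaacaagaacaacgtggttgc
Amy2a5: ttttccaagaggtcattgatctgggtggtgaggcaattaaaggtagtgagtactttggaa
Cpa1: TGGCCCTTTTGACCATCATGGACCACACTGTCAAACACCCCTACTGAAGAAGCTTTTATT
Clps: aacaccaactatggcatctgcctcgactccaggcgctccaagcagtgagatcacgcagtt
Capitals mark a run that a second probe of the same gene shares. In the files' mm9 coordinates the Cela1 probe lies at chr15:100515014-100515073 on the minus strand, Cpa1 at chr6:30595240-30595299 on the plus strand and Clps at chr17:28695242-28695301 on the minus strand. The Amy2a5 probe is listed at chr3:113089625-113091350 on the minus strand, a span of 1726 bases for a probe of 60, so its letters are not contiguous in the genome.

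Each of the 10 genes turned out to have a second probe, named in the files by its RefSeq transcript only and found through that accession. It was not used to choose the members, and it was looked at after the first probe's values were known. For Cpa1 it has the same 60 letters, so this pair is one sequence read at separate spots of an array. For Sycn the pair shares a run of 47 letters. The other pairs share runs of at most 7. The pairs printed here are those of Ctrb1 and Cel, which gave the least alike profiles over the arrays.
Ctrb1, named probe: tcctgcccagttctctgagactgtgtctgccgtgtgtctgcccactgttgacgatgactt
Ctrb1, second probe: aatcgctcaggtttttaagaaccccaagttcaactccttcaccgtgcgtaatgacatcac
Cel, named probe: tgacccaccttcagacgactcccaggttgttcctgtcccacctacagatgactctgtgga
Cel, second probe: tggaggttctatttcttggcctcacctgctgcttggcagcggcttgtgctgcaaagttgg
The named probes of these genes lie at chr8:114212498-114212557 and chr2:28411609-28411668 (mm9), both on the minus strand.

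**Figure D1:**
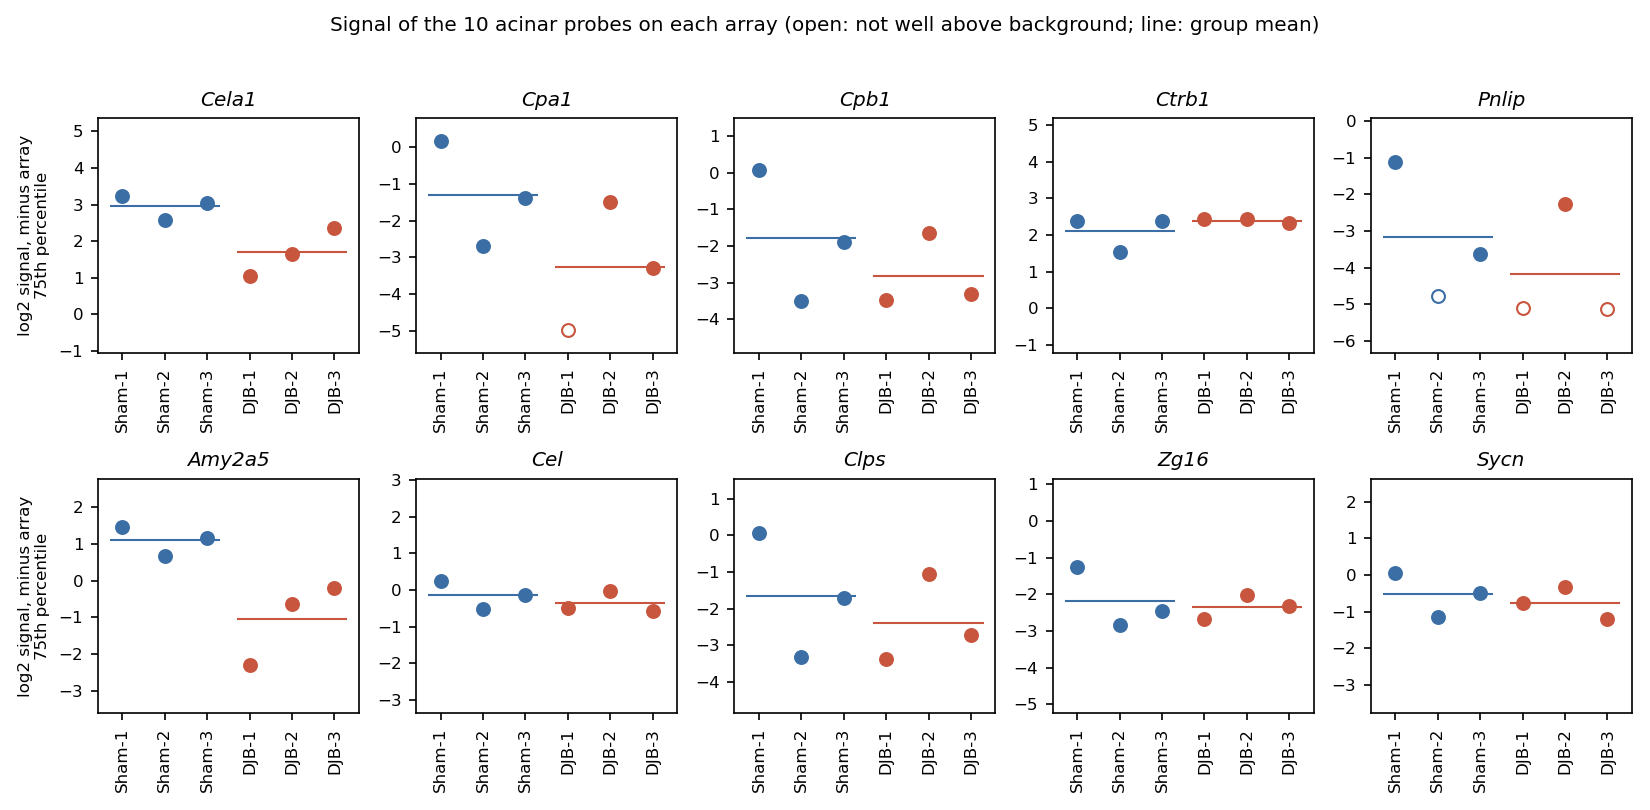
Level of the 10 named probes on each array (log2 of processed signal minus the array's 75th percentile; each panel spans the same number of log2 units), with Sham arrays in blue, DJB arrays in red and lines at the group means of 3 arrays. Open circles are spots not well above background. Sham-1 is the highest array in 9 of the 10 panels, and the groups separate fully only for Cela1 and Amy2a5.

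The question the design puts to these genes is whether their level differed between bypass and sham surgery. None of the 10 was called: limma, a moderated linear model fitted across the 99423 probes that passed a filter on dim spots (3 or more arrays well above background) and adjusted by Benjamini-Hochberg over all of them, gave no member an adjusted p under 0.05. All 10 members were among the probes tested. Over the same probes 3.16% were called lower and 1.83% higher in DJB. At an unadjusted p under 0.05 the test took 2 members, Amy2a5 and Cela1, both lower in DJB, against 12.6% of all tested probes that were lower at that level. With normexp, another background correction, the adjusted test called these 2 members lower, where it called 4.93% of all tested probes lower. The DJB minus Sham difference was negative for 9 of the 10, with a median of -0.86, and the median over all tested probes was 0.08. With normexp 9 of the 10 likewise lay below the median of all tested probes. So did 9 with quantile scaling and with the authors' deposited values, which gave nearly the same members' median (-0.774 and -0.775). Median scaling shifts all probes of an array alike, so it cannot change this count. The members' median rested on 1 array: without Sham-1 it was 0.0028, with 5 members negative and 5 positive.

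The elastase Cela1, a protease that cuts elastic and other proteins, had levels of 3.25, 2.58 and 3.03 on Sham-1 to Sham-3 and of 1.06, 1.66 and 2.37 on DJB-1 to DJB-3. Every DJB array lay below every Sham array. All 3 DJB arrays were below all 3 Sham arrays for 14.2% of the tested probes and above them for 21.8%. The Sham mean was 2.95 ± 0.34 and the DJB mean 1.70 ± 0.65 (SD, n = 3 arrays each), a difference of -1.26 with an SE of 0.35 (limma, adjusted p = 0.087). An exact two-sided permutation test gave p = 0.1, the smallest value that 3 against 3 arrays allow. Within slide 1, which holds Sham-1, Sham-3, DJB-1 and DJB-2, the difference was -1.78. Within slide 2, which holds Sham-2 and DJB-3, it was -0.21, with 1 array a group and no test. With slide as a block limma's adjusted p was 0.121.

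The second Cela1 probe gave 5.63, 5.34 and 5.56 for Sham and 3.97, 4.90 and 5.10 for DJB. It too had all DJB arrays below all Sham arrays, the only second probe to do so. Its difference was -0.85, with an SE of 0.30 (limma, adjusted p = 0.136). The profiles of the Cela1 pair over the 6 arrays had a Pearson correlation of 0.96.

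Chymotrypsinogen B1, encoded by Ctrb1, is activated in the gut to a protease that cuts beside aromatic residues. On its named probe it stood apart from the other members. Its levels were 2.38, 1.54 and 2.40 on Sham and 2.43, 2.43 and 2.32 on DJB arrays. The DJB arrays were close together, with an SD of 0.07, and Sham-2 alone was low. The difference of 0.29 (SE 0.25) was the only positive one and did not pass (limma, adjusted p = 0.482). The second Ctrb1 probe gave -0.25 (limma, adjusted p = 0.653), the opposite sign, and correlated with the first at 0.41. It read -1.87, -2.47 and -1.69 on Sham and -2.43, -1.64 and -2.72 on DJB arrays, well above background on all 6. Its highest arrays were DJB-2, Sham-3 and Sham-1, which were also the highest, in another order, for Cpb1, Clps and Pnlip.

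Carboxypeptidase A1, made from Cpa1 and trimming aromatic and aliphatic residues from the end of peptides, had levels of 0.18, -2.70 and -1.38 on Sham and of -4.99, -1.50 and -3.30 on DJB arrays. The highest was Sham-1 and the lowest DJB-1, where the spot was not well above background. The groups overlapped, and the difference of -1.97 had an SE of 1.05 (limma, adjusted p = 0.271).

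Because the second Cpa1 probe has the same letters, it shows how well a spot repeats on the same array. It read 0.19, -2.81 and -1.22 on Sham and -3.54, -1.51 and -3.29 on DJB arrays. The spots differed by 0.17 or less on 5 arrays and by 1.46 on DJB-1, the array on which the named spot was not well above background. With the second spot the range over arrays was 3.73 units and the difference was -1.50 (limma, adjusted p = 0.304). Over the Sham arrays the named spot ranged over 2.88 units, against a gap of at most 0.17 between the spots of one sequence there.

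Carboxypeptidase B1, from Cpb1, takes basic residues from the end of peptides. Its levels were 0.07, -3.50 and -1.88 on Sham and -3.46, -1.65 and -3.32 on DJB arrays. Sham-1 was again the highest, followed by DJB-2 and Sham-3, and Sham-2 lay with DJB-1 and DJB-3. The Sham mean was -1.77 ± 1.79 and the DJB mean -2.81 ± 1.01 (SD, n = 3 each), a difference of -1.04 with an SE of 0.95 (limma, adjusted p = 0.512). Within slide 2 the sign turned, to 0.18. The second probe repeated the order of the 3 highest arrays, at -0.44, -3.97 and -2.59 on Sham and -4.50, -2.08 and -4.78 on DJB arrays (not well above background on DJB-3), with a correlation of 0.98 between the pair.

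Colipase, the cofactor from Clps that holds pancreatic lipase on the fat droplet, had levels of 0.07, -3.32 and -1.72 on Sham and -3.38, -1.06 and -2.73 on DJB arrays. Sham-1 and DJB-2, an array of each group, were the highest. The difference was -0.73 with an SE of 0.96 (limma, adjusted p = 0.655). It was 0.13 without Sham-1 and 0.59 within slide 2. The second probe was well above background only on Sham-1, at -2.25, and DJB-2, at -3.40, and lay between -7.00 and -5.41 on the other 4 arrays, so it was not tested.

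Pancreatic lipase, from Pnlip, was well above background on Sham-1, Sham-3 and DJB-2 only, at -1.13, -3.63 and -2.28. Sham-2, DJB-1 and DJB-3 read -4.78, -5.11 and -5.13. The difference of -0.99 (SE 1.15) did not pass (limma, adjusted p = 0.607) and was 0.03 without Sham-1. The second Pnlip probe was well above background on all 6 arrays, with 2.07, 1.04 and 1.34 on Sham and 0.71, 1.18 and 0.56 on DJB arrays, a difference of -0.67 (limma, adjusted p = 0.209) and a correlation of 0.90 with the first. Both probes had Sham-1 as the highest array.

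Carboxyl ester lipase, a bile-salt-dependent lipase from Cel, varied little: 0.24, -0.51 and -0.15 on Sham and -0.49, -0.02 and -0.56 on DJB arrays. Its 3 highest arrays were nevertheless those of Pnlip, in the same order, with a correlation of 0.99 between these 2 named probes. The difference was -0.22 with an SE of 0.24 (limma, adjusted p = 0.588). The second Cel probe gave 0.21 (limma, adjusted p = 0.551), correlated with the first at only 0.25 and had DJB-1 as its highest array, so the profile of Cel over arrays rests on 1 probe.

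Amy2a5, a pancreatic amylase gene, had the largest difference of the 10 named probes. Its levels were 1.48, 0.67 and 1.16 on Sham and -2.30, -0.63 and -0.19 on DJB arrays. The groups did not overlap. The Sham mean was 1.10 ± 0.40 and the DJB mean -1.04 ± 1.12 (SD, n = 3 each), a difference of -2.15 with an SE of 0.56, or 4.42-fold, that missed the threshold (limma, adjusted p = 0.075; exact two-sided permutation p = 0.1). It was -2.79 within slide 1 and -0.86 within slide 2, and limma's adjusted p with slide as a block was 0.109. The second probe gave 3.09, 0.69 and 1.40 on Sham and -2.29, 1.15 and -0.43 on DJB arrays. There DJB-2 lay above Sham-2, so the groups overlapped, and the difference of -2.25 had an SE of 0.98 (limma, adjusted p = 0.195).

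Amylase genes are near-identical copies of each other, and a probe can bind the RNA of more than 1. Amy1, the amylase of salivary gland and liver, has 3 probes, of which 1 also lists the Amy2a5 transcript as a target. The brightest Amy1 probe, the one that does, gave 6.33, 5.91 and 6.20 on Sham and 2.95, 3.99 and 4.57 on DJB arrays. It was called lower in DJB, with a difference of -2.31 (limma, adjusted p = 0.039), and the other Amy1 probes differed by -2.36 and -2.38. The call of the brightest probe ended with slide as a block (limma, adjusted p = 0.067) and without Sham-1 (limma, adjusted p = 0.145). The probes of the pancreatic copies Amy2a4 and Amy2b were not well above background on any array. Which amylase gene gave the Amy2a5 signal was not tested.

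The granule proteins Zg16, a lectin-like protein of zymogen granules that intestinal goblet cells also make, and Sycn, or syncollin, of the granule membrane, differed little between the groups. Zg16 read -1.26, -2.83 and -2.46 on Sham and -2.69, -2.02 and -2.31 on DJB arrays, a difference of -0.16 with an SE of 0.42 (limma, adjusted p = 0.832). Its sign turned without Sham-1 (0.30), without DJB-1 (0.013), within slide 2 (0.51), with another background correction (0.016) and on the second probe (0.15). Sycn read 0.06, -1.15 and -0.48 on Sham and -0.76, -0.33 and -1.20 on DJB arrays, a difference of -0.23 with an SE of 0.36 (limma, adjusted p = 0.700), and 0.06 without Sham-1. Both were highest on Sham-1.

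**Figure D2:**
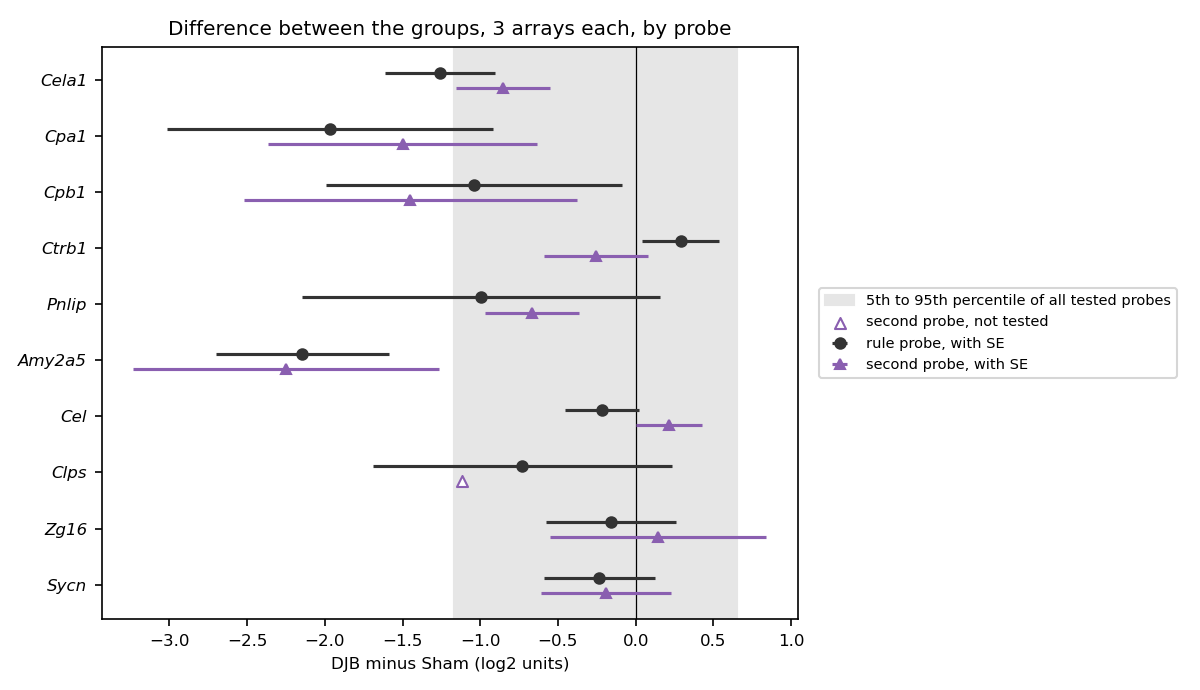
DJB minus Sham difference in log2 units, with its SE from limma, for the named probe (circles) and the second probe (triangles; open where not tested) of each gene, 3 arrays per group. The grey band runs from -1.17 to 0.65, the 5th to 95th percentile of all tested probes; both Amy2a5 probes and the named probes of Cela1 and Cpa1 are among those left of it.

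The spread within groups was wide for part of the list. Over all tested probes the median SD was 0.16 over the Sham arrays and 0.22 over the DJB arrays, with 95th percentiles of 0.67 and 0.79. Cpa1, Cpb1, Clps and Pnlip had SDs of 1.44, 1.79, 1.70 and 1.87 over Sham and of 1.75, 1.01, 1.20 and 1.64 over DJB arrays. Their pooled within-group SD was above that of 99% of tested probes. Amy2a5 was wide over the DJB arrays only (0.40 over Sham, 1.12 over DJB) and Zg16 over the Sham arrays only (0.82 over Sham, 0.33 over DJB). Cel, Ctrb1, Sycn and Cela1 lay below the 95th percentile in both groups. The Pnlip and Cpa1 values include spots not well above background.

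**Figure D3:**
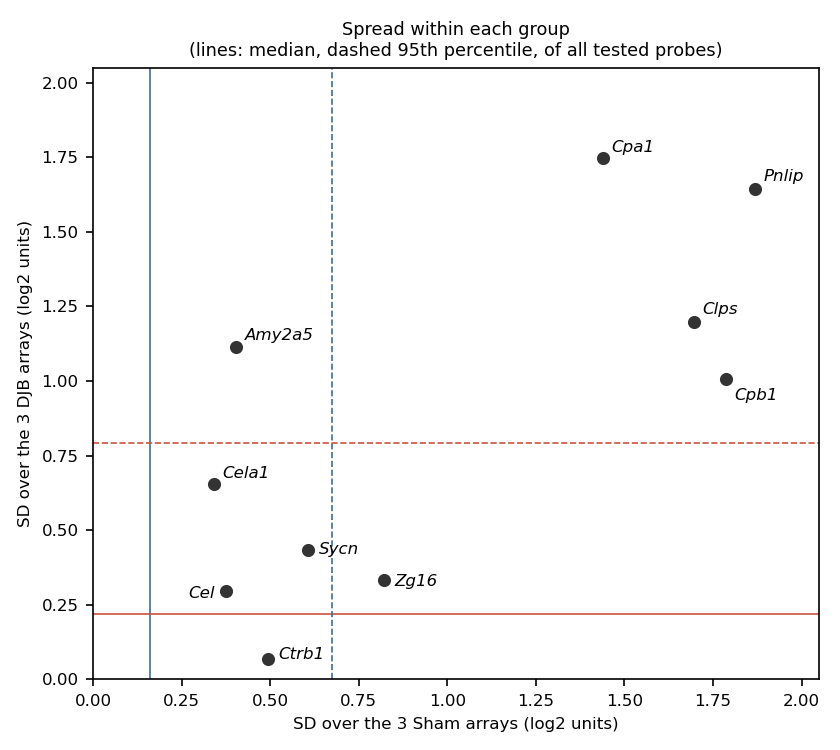
SD of the log2 level over the 3 Sham arrays (horizontal) and over the 3 DJB arrays (vertical) for the 10 named probes. Solid lines mark the median and dashed lines the 95th percentile of all tested probes in each group; Cpa1, Cpb1, Clps and Pnlip lie beyond both dashed lines.

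Most members, of different function, shared the highest array but not the whole order of arrays. Sham-1 was the highest array for 9 of the 10 named probes and for 8 of the 10 second probes, and for 14.8% of all tested probes. Wide ranges went with that array across the whole array design: of the 14731 probes that ranged over at least 2 units and were well above background on 1 array or more, 45.3% were highest on Sham-1. The 6 members with such a range, Cela1, Cpa1, Cpb1, Pnlip, Amy2a5 and Clps, were all highest there. The lowest array was DJB-1 for 4, Sham-2 for 3 and DJB-3 for 3 of the named probes. The mean of Cpa1, Cpb1, Clps and Pnlip, chosen after their spread was seen, was -0.20 on Sham-1, -1.62 on DJB-2, -2.15 on Sham-3, -3.58 on Sham-2, -3.62 on DJB-3 and -4.24 on DJB-1. Choosing genes for a wide spread within groups favours groups that overlap, so the mixed order of Sham and DJB arrays is a description of these 4 genes only. Its low end includes spots not well above background, of Pnlip on Sham-2, DJB-1 and DJB-3 and of Cpa1 on DJB-1. With bulk RNA, more cells of a type and more RNA per cell cannot be told apart.

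As a description over the 6 arrays, which share scaling and slides, Cpb1 correlated with Clps at 0.98 and with Pnlip at 0.97, and Clps with Pnlip at 0.97. Of the 45 pairs of members, 14 were above 0.9. Cela1 and Amy2a5 correlated with each other at 0.98 but with Pnlip at 0.42 and 0.50. Cpa1 lay between, at 0.76 with Cela1, 0.83 with Amy2a5 and 0.89 to 0.90 with Pnlip, Cpb1 and Clps. The named Ctrb1 probe correlated with those of the other members at between -0.27 and 0.55. The 10 named probes therefore showed at least 2 orders of arrays. In 1, Sham-1 and DJB-2 led, and in the other all Sham lay above all DJB arrays. The latter order was held by both probes for Cela1 only. The second Amy2a5 probe had overlapping groups and correlated with the named Cpa1 probe at 0.99.

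For the 6 members with a range of at least 2 units, the most similar genes were sought among 4037 genes with such a range, by Pearson correlation over the 6 arrays. For Clps the 5 closest were 2210010C04Rik, Try5, Pnliprp1, Try4 and Prss2, at 0.98 to 0.998. Try4, Try5 and Prss2 are trypsinogen genes, whose products start the activation of the other zymogens, and Pnliprp1 is a relative of Pnlip. For Pnlip they were Try5, Cela2a, Cela3b, Try4 and Clps, and for Cpb1 Ocm, 2210010C04Rik, Try5, Reg4 and Cela3b. For Cpa1 the closest were Hpd, the second Amy2a5 probe, Shroom1, Hcar1 and Cntnap2. For the named Amy2a5 probe they were Plin1, the perilipin that coats the fat droplet, Aqp7, the glycerol channel of adipocytes, and Kcnk3, Prelp and Fgfrl1. All were at 0.998 or higher. For Cela1 they were Sh2d7, Cib2, A930018P22Rik, Klhdc7a and Lgals12. Ocm, Reg4 and Cntnap2 were well above background on 1 array only, and Hpd and Shroom1 on 3. These likenesses are a description over 6 arrays and were not tested.

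Plin1 itself read 7.45, 6.91 and 7.29 on Sham and 4.70, 5.91 and 6.25 on DJB arrays. In the adipocyte list 10 of 13 genes had all DJB arrays below all Sham arrays (14.2% of all tested probes did), 3 were called lower (Lep, Pparg and Retn, with differences of -2.96, -0.72 and -1.20), none was called higher, and the list's median difference was -1.20. Among all tested probes 3.16% were called lower. The calls of Lep, Pparg and Retn ended with slide as a block (limma, adjusted p = 0.064 to 0.067) and without Sham-1 (limma, adjusted p = 0.133 to 0.151). The part of this shift in the Amy2a5 and Cela1 values was not tested.

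Other acinar genes were counted from a list of 34, of which 32 have a probe and 23 were tested on their brightest tested probe. Of the 23, 1 was called lower and 0 higher, with a median difference of -0.31. Of 15 list genes with a range of at least 2 units, 11 were highest on Sham-1; Cckar, Gp2 and Reg2, 3 of the 15, were well above background on only 1 or 2 arrays. Among genes that were called or had such a range, Sham-1 was likewise the highest array for 5 of 6 duct, 6 of 8 intestinal and 7 of 10 adipocyte genes, but for 0 of 4 islet and 0 of 3 lymph node and B cell genes. Over all probes with such a range the share was 45.3%, so nothing particular to acinar genes is read from the peak on Sham-1. Trypsinogen Try4 read 0.96, -2.95 and -1.31 on Sham and -3.77, -0.66 and -2.81 on DJB arrays, and Prss2 read -0.07, -3.37 and -2.06 on Sham and -4.16, -1.59 and -3.06 on DJB arrays. In both, Sham-1, DJB-2 and Sham-3 were the 3 highest, as for Cpb1 and Clps.

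Not all acinar genes followed that order. Cuzd1, a zymogen granule membrane protein, read 5.22 and 4.49 on Sham-1 and Sham-2 but -4.12 on Sham-3, and -6.80, 0.04 and 0.43 on the DJB arrays, the DJB-1 spot being not well above background. Spink1, a trypsin inhibitor, read 2.96 on Sham-1 and between -2.64 and -1.02 on the other 5 arrays. Rnase1, the pancreatic ribonuclease that many other cells make too, ranged over only 0.28 units.

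**Figure D4:**
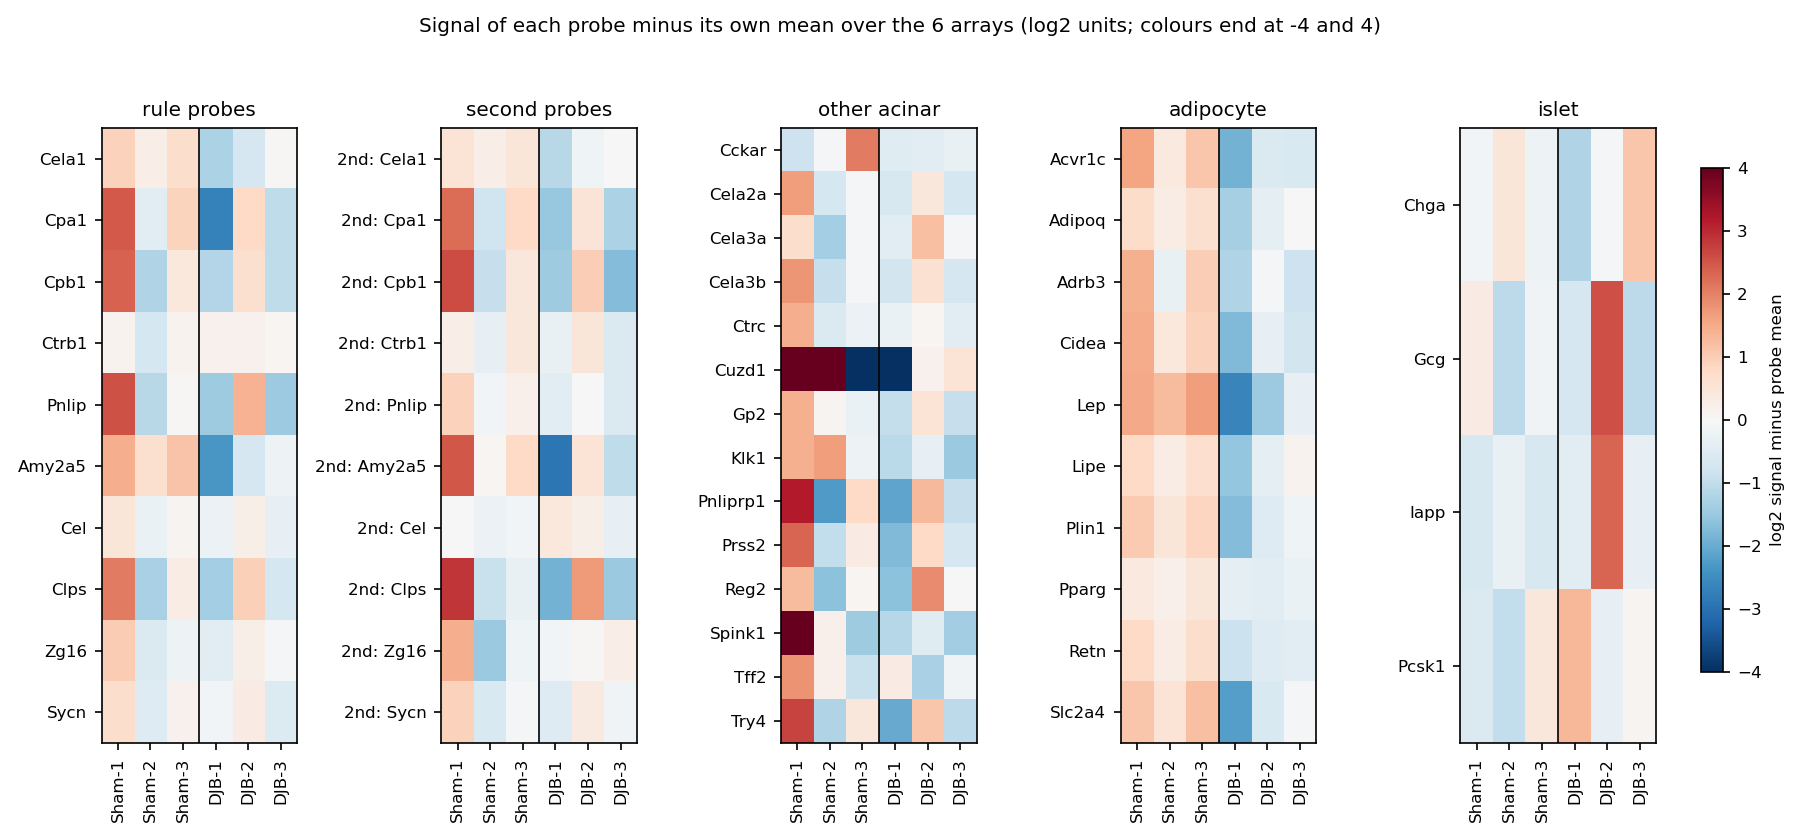
Level of each probe minus its own mean over the 6 arrays (log2 units, red higher and blue lower, colours ending at -4 and 4), for the named and second probes of the 10 genes and for genes of the other acinar, adipocyte and islet lists among those that were called or had a range of at least 2 units. Sham-1 is the reddest column for most acinar probes, most of the adipocyte genes (not Adrb3) divide at the line between the groups, and Gcg and Iapp stand out on DJB-2.

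The markers of other cell types did not share one order of arrays. Of 16 islet genes 12 were tested and limma called 0 in either direction (2 higher at an unadjusted p under 0.05). The share of all tested probes that were higher at that level was not counted. Gcg, which encodes glucagon, was well above background only on DJB-2, at -3.42, with -7.03 to -5.65 elsewhere. Iapp, the islet amyloid peptide, was likewise above background only there, at -4.41. Of the 3 probes for Ins2, an insulin gene, 2 were highest on DJB-2, at -0.54 and -1.05, while the brightest was highest on Sham-3, at -0.62, and none of the 3 was called. Over the 14 islet genes that were well above background on 1 array or more, 1 probe each, the highest array was DJB-1 for 5, DJB-2 for 4, DJB-3 for 2, Sham-1 for 2 and Sham-3 for 1. The summed level of the islet list was 2.37 to 2.61 for Sham and 2.70 to 2.76 for DJB.

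Of 10 duct genes 8 were tested and 1 was called lower (4 lower and 1 higher unadjusted), Krt19, a keratin of many epithelia (5.45, 5.13 and 4.84 on Sham, 2.69, 1.92 and 3.29 on DJB arrays), and the list's median difference was -0.90. Its summed level, 6.89 to 7.44 for Sham and 7.69 to 8.48 for DJB, follows its brightest gene, Spp1, a secreted protein that macrophages also make (6.00, 6.79 and 6.12 on Sham, 7.56, 8.42 and 7.54 on DJB arrays). Of 20 intestinal genes 17 were tested and limma called 0 (4 lower and 2 higher unadjusted). On Sham-1 19 of these 20 were well above background, against 13 to 17 on the other arrays, and their median difference was 0.26. Their summed level, 8.05 to 8.31 for Sham and 8.65 to 8.92 for DJB, is nearly all Lyz1, a lysozyme (7.77 to 8.18 for Sham, 8.56 to 8.83 for DJB). Of 7 lymph node and B cell genes with a probe all 7 were tested and limma called 0 (4 lower unadjusted), with summed levels of 3.77 to 5.12 for Sham and 2.70 to 3.69 for DJB. Of 6 genes of salivary and other glands 3 were tested and 2 called lower, Amy1 and Mucl2. Mucl2 was well above background on every Sham array but, of the DJB arrays, on DJB-3 only, and was called in 2 of 14 alternatives. The calls of Krt19 and Mucl2 ended as well with slide as a block (limma, adjusted p = 0.053 and 0.051) and without Sham-1. At an unadjusted limma p under 0.05, 12.6% of all tested probes were lower in DJB, and the share higher was not counted. The part of these cells in the acinar values was not tested.

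None of the 6 transcription factors on the list drawn up for acinar cells was called. Whether each of them is particular to these cells was not tested. Both probes for Ptf1a, the factor that defines the acinar lineage, were not well above background on any array, and neither was Mnx1. Rbpjl, the partner of Ptf1a in PTF1, was above background on all 6 arrays and ranged over only 0.33 units. Of 6 such genes 4 were tested and limma called 0 (1 lower unadjusted, against 12.6% of all tested probes). The brightest probe of that gene, Bhlha15, a regulator of granule packing, differed by -1.11 (limma, adjusted p = 0.14). The other Bhlha15 probes differed by 0.15 (limma, adjusted p = 0.72) and -2.41 (limma, adjusted p = 0.17).

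PTF1 binds a pair of short boxes, an E-box (CANNTG) and a TC-box (TTTCCC), a fixed distance apart. RefSeq promoters of build GRCm38.p6 are held here for 8 of the 10 members, and the 250 bases before the start site were searched on both strands. The boxes stood 4 or 5 bases apart in 2 of the 8, Cela1 and Ctrb1, and in 0.171% of 32817 promoters of all genes. They stood 14 to 16 bases apart in Cel, and in 0.311% of all. Alone, an E-box was in 6 of the 8 (66.2% of all), a TC-box in 4 (21.9% of all), and TATAAA in 3 (12.4% of all). The windows of the genes that hold the paired boxes are shown. Capitals mark the boxes.
Cela1, chr15:100687994-100688049, minus strand: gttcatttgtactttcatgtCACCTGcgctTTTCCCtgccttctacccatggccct
Ctrb1, chr8:111691180-111691235, minus strand: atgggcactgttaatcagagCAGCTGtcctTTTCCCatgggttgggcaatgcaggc
Cel, chr2:28563443-28563509, minus strand: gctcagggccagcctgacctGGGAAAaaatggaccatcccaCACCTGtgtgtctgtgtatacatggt
In Cel the TC-box is on the opposite strand. On their named probes Cela1 and Ctrb1, which hold the same arrangement, correlated over the arrays at -0.21. Whether the boxes bear on the levels was not tested. The boxes were searched for because PTF1 switches on acinar enzyme genes, so no enrichment is read from these shares. A match is a description of the letters, not evidence of binding.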

How the data were processed

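RNA of abdominal adipose tissue was measured on 6 one-colour arrays, 3 Sham and 3 DJB. Per the labels' protocols, total RNA was amplified and labelled with cyanine 3. Per the file headers, the authors quantified the arrays with Agilent Feature Extraction 12.0.3.1 (protocol GE1_1200_Jun14, genome build field mm9). The deposited scanner files give a background-subtracted intensity per spot, and mean and background intensity. A second deposited file holds the authors' log2 values; each column correlated best with its own array (0.9993 or higher; column medians 4.55 to 4.56), and the submitters' processing notes name limma; its scaling is not given in the sources used here. The table was an alternative.

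The log2 of the processed intensity was scaled to each array's 75th percentile over non-control probes. Outlier spots (18 to 25 an array) were left out, and no spot was saturated. A probe was tested if well above background on at least 3 arrays and measured on at least 2 a group. limma 3.58.1 (R 4.3.3) was fitted on all tested probes with Benjamini-Hochberg adjustment at 0.05, and was checked on simulated data. Exact permutation tests used the 6 arrays. Slides came from the array identifiers. Symbols of probes named by accession came from a RefSeq gene table of build GRCm38.p6. Named beside the members were list genes called or with a range of at least 2 units and above background on 1 array, and the 5 genes most like each member that met the same rule; other genes named were chosen after their values were seen. The members and gene lists were chosen with earlier results of these data known. Deviations from the group mean correlated at -0.18, -0.12 and -0.29 between same-numbered arrays, and at -0.15 to 0.25 between others. With 3 arrays a group these correlations are tied to each other, so they cannot settle whether the numbers pair arrays. The main test used no pairing. Alternatives were background correction, scaling, the deposited values, the filter, the variance prior, slide and replicate blocks, single arrays left out, and, added after the data were seen, the second probes. The values of 1 called acinar list gene and the sequence of 1 probe are not reported here.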

Additional observations from a re-analysis of the deposited data

How the results depend on the processing

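No member was called under 15 of 16 alternatives; normexp background correction called 2, Amy2a5 (-1.57) and Cela1 (-1.34), both lower (limma, adjusted p = 0.033 each), where 4.93% of all tested probes were called lower. The count of called probes over the whole array was 4958 (3137 lower, 1821 higher). It was 11947 with normexp (4904 lower, 7043 higher), 10607 with a trended robust prior (5332 lower, 5275 higher), 7548 with the filter on all 6 arrays, 655 without a filter, 707 with slide as a block and 0 with the replicate block (21421 at an unadjusted p under 0.05); leaving out 1 array gave 120 (without Sham-1) to 3974. Median scaling, which moved the median of all probes by 0.11, gave 3922 (2025 lower, 1897 higher). The replicate block changed no member's call. Leaving out 1 array moved the members' median from -1.50 (without Sham-2) to 0.0028 (without Sham-1).

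The sign of Zg16 turned with normexp (0.016), without Sham-1 or DJB-1, within slide 2 (0.51) and on its second probe (0.15). Leaving out 1 array gave a range of -0.48 to 0.30 for Zg16, and turned the sign, without Sham-1, of Pnlip (-1.94 to 0.034), Clps (-1.56 to 0.13) and Sycn (-0.55 to 0.056). Signs also turned within slide 2 for Cpb1 (0.18) and Clps (0.59), and on the second probe for Ctrb1 (-0.25) and Cel (0.21). The cause was not tested. Signal over background limits Pnlip on 3 arrays and Cpa1 on 1.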
